A study of Homo sapiens with 20 samples.

Results

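Cholesterol and fatty acid synthesis is represented by 32 genes, listed by symbol, that encode the enzymes of both pathways and the proteins that sense and move sterols. All 32 were found among the 24196 genes of the deposited table, and the rule for membership used symbols and not values. They were measured by RNA sequencing in 8 libraries of orthotopic tumors of OVCAR8, a human high-grade serous ovarian cancer cell line. The labels place 4 of the libraries in a PBS group and 4 in a gluconate group, with NSG mice, which lack T, B and NK cells, as hosts. In the study's efficacy experiment, OVCAR8-sgNC-luc cells, which carry a non-targeting guide and luciferase, were injected into the ovarian fat pad of mice 6 weeks old. PBS or sodium gluconate at 1 mg/kg was then given i.p. each week for 35 days, and gluconate is a sugar acid made by oxidation of glucose. The labels name OVCAR8 and NSG without the guide, so that all 8 libraries come from 1 cell line in hosts without adaptive immunity, and whether they come from the mice of that experiment is not stated. The study's text speaks of treated cells where the labels speak of tumors. The table heads its columns C or T with a number, read here as PBS or gluconate and replicate from the ratio of T to C in the study's plot of gluconate against PBS. The labels do not say that each library is a separate mouse, so p-values measure the spread between libraries, which may be technical. A further 12 libraries of knockout cells and their controls were not analysed here.

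Cholesterol is built from acetyl-CoA through mevalonate, which is condensed into squalene and then closed and trimmed into the sterol ring system. Fatty acids draw on the same acetyl-CoA, which ATP-citrate lyase releases from citrate in the cytosol. When sterols are scarce, SCAP escorts the SREBP transcription factors from the endoplasmic reticulum to the Golgi, where they are cut free, and INSIG proteins hold the complex back when sterols are plentiful. SREBP-2, made from SREBF2, mainly drives the sterol enzymes, and SREBP-1, made from SREBF1, mainly drives the fatty acid enzymes, so that these genes often move together.

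Values are the deposited FPKM, a scale on which the fragments of a gene are divided by its length and by the depth of the library, and whole fragments could be recovered from its steps. PBS replicate 4 rested on 3953206 fragments and the other 7 libraries on 39325749 to 46551535, and its values lie apart from the rest. Over all 12486 genes tested, which had a mean of at least 0.5 FPKM, the mean of PBS replicate 4 was 0.25 below the mean of all libraries on the log2 scale, and the other 7 libraries lay between -0.003 and 0.08. Results that rest on PBS replicate 4 are therefore given with and without it. Of 8 ovarian carcinoma markers, 6 had a mean of at least 1 FPKM, among them PAX8 at 32.4 to 50.7 and EPCAM at 10.3 to 22.3, while KRT19 and MUC16 stayed under 0.1 in every library. Of 8 adipocyte markers, 6 were in the table and 1, LPL, had a mean of at least 1 FPKM, while PLIN1, FABP4 and CIDEC reached 0.231 at most. The summed adipocyte list was 6.65 to 12.2 FPKM in PBS, with the highest sum in PBS replicate 4, and 6.01 to 8.48 in gluconate. Of 8 markers of steroid-making ovarian or adrenal cells, 7 were in the table and FDX1 alone had a mean of at least 1 FPKM, with a list sum of 7.40 to 9.53 in PBS and 8.34 to 8.91 in gluconate. Of 6 hepatocyte markers, 4 were in the table and summed to 1.91 to 2.56 FPKM in PBS and 1.78 to 3.55 in gluconate, and ALB reached 0.019 at most. In bulk tumors, fewer cells that express a gene and less of its RNA per cell cannot be told apart.

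All 32 members were expressed, with means over the 8 libraries from 2.23 to 83.1 FPKM. Those with the highest levels, SQLE, FDPS, ELOVL5 and ACLY, each averaged over 74 FPKM, and those with the lowest, HSD17B7 and SC5D, averaged 3.03 and 2.23. SQLE and SC5D, at opposite ends of this range, belong to the same branch.

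**Figure D1:**
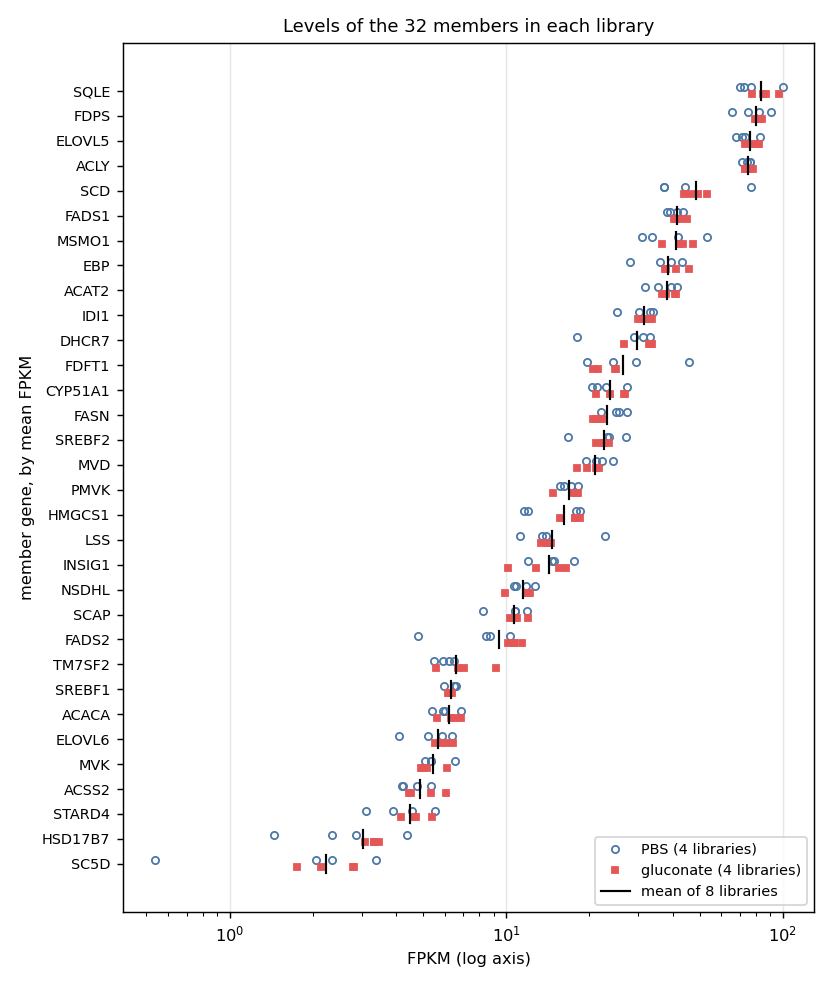
FPKM (log axis) of the 32 member genes, ordered by their mean, in the 4 PBS libraries (open circles) and the 4 gluconate libraries (squares), with the mean of 8 as a line. Levels run from 2.23 for SC5D to 83.1 for SQLE, and the single low circle at 0.536 is SC5D in PBS replicate 4.

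SQLE, squalene epoxidase, which adds the oxygen that allows ring closure, measured 76.9, 72.6, 100.2 and 70.0 FPKM in PBS replicates 1 to 4 and 77.2, 84.5, 87.2 and 96.7 in gluconate. FDPS, which makes farnesyl diphosphate, measured 82.0, 75.0, 90.6 and 65.3 in PBS and 79.2, 84.1, 82.0 and 80.4 in gluconate. ELOVL5, which lengthens polyunsaturated fatty acids, measured 73.1, 67.9, 82.5 and 71.1 in PBS and 72.7, 81.8, 80.4 and 78.6 in gluconate. In these 3 genes PBS replicate 3 was the highest of all libraries and the gluconate values lay inside the PBS range. ACLY, ATP-citrate lyase, had 74.3, 76.1, 76.0 and 71.4 FPKM in PBS and 73.0, 75.0, 78.1 and 72.9 in gluconate. FADS1, the delta-5 desaturase, had 38.2, 39.0, 43.7 and 41.5 in PBS and 42.5, 40.4, 45.0 and 41.0 in gluconate. Both were nearly flat over the 8 libraries, PBS replicate 4 included, with an SD of log2 values of 0.04 for ACLY and 0.09 for FADS1 in PBS. The order of the 6 highest members was not fixed: SQLE exceeded FDPS in 5 of 8 libraries, FDPS exceeded ELOVL5 in 7 and ELOVL5 exceeded ACLY in 4. ACLY exceeded SCD in 7 of 8 libraries and SCD exceeded FADS1 in 6, and the ranges overlapped for every neighbouring pair among the 32.

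Sequence before the annotated start was available for 28 of the 32 members in the RefSeq table on GRCh38, and FASN, ACAT2, FDFT1 and SQLE had no entry. The 250 bases before each start were searched on both strands for TCACNCCAC (a sterol regulatory element, where SREBP binds), CACGTG (an E-box), CCAAT (the box bound by NF-Y) and GGGCGG (a GC box, bound by Sp1), and none of these spellings contains another. The CCAAT box was found in 65.8% of the 38 member starts and in 32% of all 35116 starts in the table. The GC box was found in 86.8% of member starts and 42.6% of all, and the E-box in 13.2% and 6.34%. The sterol regulatory element in this spelling was found in 1 member start, that of SREBF2, or 2.63%, against 0.883% of all. A match describes the letters and not binding, and starts of the same gene can overlap. The stretches below are shown for SREBF2, which held the sterol element, for MSMO1, LSS and SCD, which were highest in PBS replicate 3, and for FADS2, in which none of the 4 motifs was found before the first start listed. Capitals mark the motif matches on either strand, and each is read in the direction of transcription.
SREBF2: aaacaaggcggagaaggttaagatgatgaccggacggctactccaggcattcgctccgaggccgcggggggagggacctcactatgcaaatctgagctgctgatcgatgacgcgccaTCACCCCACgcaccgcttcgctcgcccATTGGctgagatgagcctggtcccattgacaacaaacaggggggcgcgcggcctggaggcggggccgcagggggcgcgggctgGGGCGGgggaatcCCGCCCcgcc
MSMO1: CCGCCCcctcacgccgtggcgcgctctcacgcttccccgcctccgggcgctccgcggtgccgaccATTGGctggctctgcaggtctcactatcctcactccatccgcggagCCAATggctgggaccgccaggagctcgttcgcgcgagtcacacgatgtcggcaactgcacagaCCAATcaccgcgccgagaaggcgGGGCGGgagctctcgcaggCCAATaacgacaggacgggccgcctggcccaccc
LSS: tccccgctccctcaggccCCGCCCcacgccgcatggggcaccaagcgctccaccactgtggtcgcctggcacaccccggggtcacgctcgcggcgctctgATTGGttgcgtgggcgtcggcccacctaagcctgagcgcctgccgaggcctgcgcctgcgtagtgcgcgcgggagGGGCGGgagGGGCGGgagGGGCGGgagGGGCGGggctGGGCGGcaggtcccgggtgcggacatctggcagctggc
SCD: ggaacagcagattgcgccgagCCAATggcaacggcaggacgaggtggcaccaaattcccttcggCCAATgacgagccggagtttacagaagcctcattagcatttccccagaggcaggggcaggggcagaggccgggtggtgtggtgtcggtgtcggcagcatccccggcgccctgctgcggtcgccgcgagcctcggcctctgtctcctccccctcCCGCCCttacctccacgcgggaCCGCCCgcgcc
FADS2: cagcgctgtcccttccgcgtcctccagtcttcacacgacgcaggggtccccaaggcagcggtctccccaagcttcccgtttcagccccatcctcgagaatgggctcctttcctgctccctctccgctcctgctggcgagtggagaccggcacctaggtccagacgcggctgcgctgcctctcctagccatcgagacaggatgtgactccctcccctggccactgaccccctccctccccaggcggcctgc
The SREBF2 stretch was chr22:41832855-41833104 on the plus strand. The MSMO1 stretch was chr4:165327419-165327668 on the plus strand. The LSS stretch was chr21:46228775-46229024 on the minus strand. The SCD stretch was chr10:100346983-100347232 on the plus strand. The FADS2 stretch was chr11:61815953-61816202 on the plus strand. MSMO1 held 4 CCAAT boxes, SCD 2, LSS 1 with 6 GC boxes, and SREBF2 1.

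The comparison of gluconate with PBS asks whether the treatment went along with a change in lipid synthesis genes. No member passed the adjusted threshold of 0.05 in limma (Benjamini-Hochberg adjustment, made across the whole table), and the lowest adjusted p of a member was 0.740. The same held for 0% of all genes tested. At an unadjusted p under 0.05 there was 1 member of 32, FASN, against 4.62% of all genes tested. No member had groups that did not overlap, against 3.49% of all genes. The log2 fold change was above 0 in 25 of 32 members, beside 66.4% of all genes tested, with a median of 0.08 in the members and 0.07 in all genes. Scaling the libraries by median ratios brought 25 down to 19 members and 66.4% down to 51.3% of all genes. Without PBS replicate 4, 18 of 32 members lay above 0, beside 49.1% of the 12530 genes then tested, and the median of the members was 0.01. No member passed the adjusted threshold then (0% of all genes), 2 had an unadjusted p under 0.05 (6.21% of all genes) and none had groups that did not overlap (6.1% of all genes). Without PBS replicate 3, 4 members had an unadjusted p under 0.05, all higher in gluconate, beside 4.02% of all genes, and without PBS replicates 3 and 4 together there were again 4, beside 4.16%. These were SQLE, HSD17B7, SCD and FADS2 both times, and in neither fit did a member pass the adjusted threshold. PBS replicate 3 was the highest PBS library in each of these 4 genes, so leaving it out could only raise their log2 fold changes. Of all genes, 69.2% lay above 0 without PBS replicate 3 and 47.2% without both libraries.

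**Figure D2:**
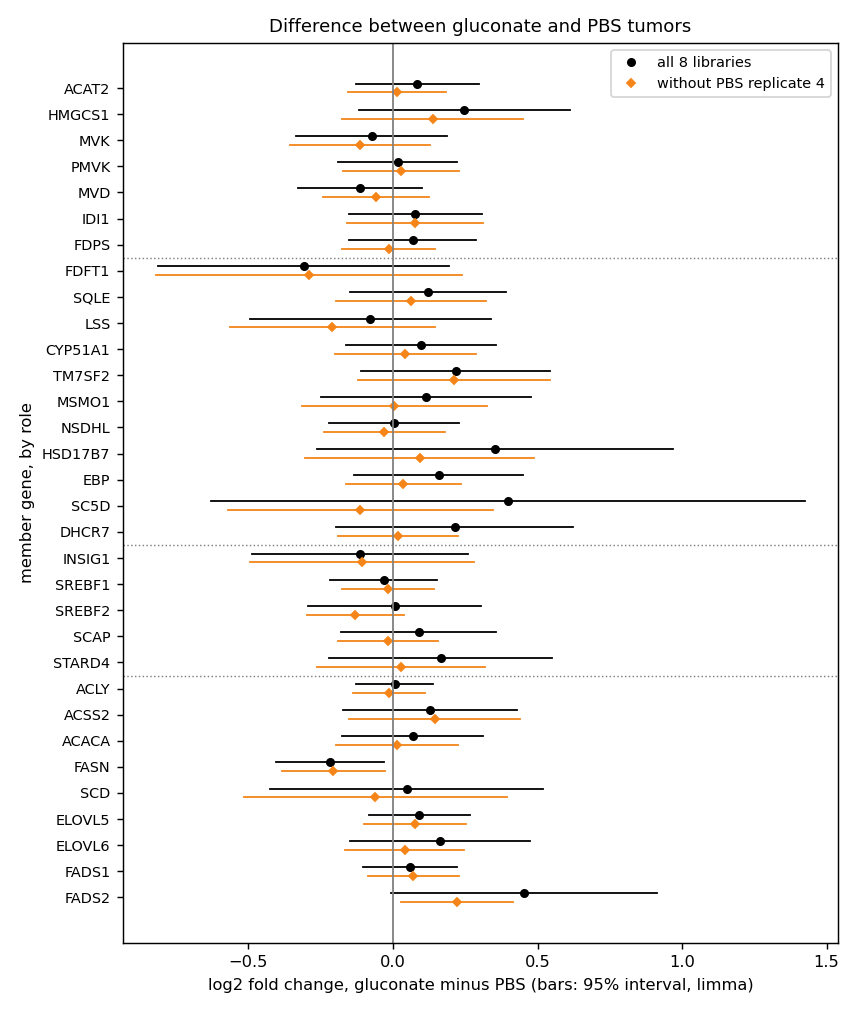
Log2 fold change of each member, gluconate minus PBS, with its 95% interval from limma, for all 8 libraries (black circles) and without PBS replicate 4 (orange diamonds), ordered by role. The FASN intervals lie below 0 in both fits, and without PBS replicate 4 the FADS2 interval runs from 0.03 to 0.42.

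FASN, fatty acid synthase, which builds palmitate, lies at chr17:82078338-82098236 (GRCh38). It measured 22.0, 24.9, 27.4 and 25.5 FPKM in PBS and 22.1, 21.1, 21.8 and 20.6 in gluconate. The gluconate values lay close together, and PBS replicate 1 fell among them, so that the groups overlapped by that 1 library. The means were 24.96 ± 2.23 in PBS and 21.4 ± 0.704 in gluconate (SD, n = 4 each), a log2 fold change of -0.22 (SE 0.08, limma unadjusted p = 0.026, Benjamini-Hochberg adjusted p = 0.740). PBS replicate 4 counted 861 FASN fragments, and without it the log2 fold change was -0.21 (SE 0.08, limma unadjusted p = 0.029, adjusted p = 0.799). Without PBS replicate 3 it was -0.17, with a limma unadjusted p of 0.071, and the unadjusted p was 0.058 without gluconate replicate 2 and 0.066 without gluconate replicate 4. An exact two-sided permutation test over the libraries gave p = 0.057 for FASN, and p = 0.114 without PBS replicate 4.

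FADS2, the delta-6 desaturase that opens the path to long polyunsaturated fatty acids, lies at chr11:61816203-61867354. It measured 8.76, 8.47, 10.3 and 4.80 FPKM in PBS and 10.7, 10.7, 10.1 and 11.4 in gluconate. PBS replicate 4 was far below the rest, from 68 fragments with a 95% Poisson interval of 3.73 to 6.08 FPKM, and PBS replicate 3 lay inside the gluconate range. The means were 8.09 ± 2.35 in PBS and 10.7 ± 0.534 in gluconate (SD, n = 4 each). The log2 fold change was 0.45 (SE 0.20, limma unadjusted p = 0.053, adjusted p = 0.740) and, without PBS replicate 4, 0.22 (SE 0.09, unadjusted p = 0.028, adjusted p = 0.799). The exact two-sided permutation test gave p = 0.057 with all libraries and p = 0.114 without PBS replicate 4. FASN was lower and FADS2 higher in gluconate, although both belong to fatty acid synthesis. Exons of FADS2 overlap those of FADS1 on the other strand and of FEN1 on the same strand, 2 genes with means of 41.4 and 42.7 FPKM, and whether counting used strand is not given in the sources used here.

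The other fatty acid genes differed less. Of the 9 in the group, 8 had a log2 fold change above 0 and FASN 1 below, with a median of 0.07, beside 66.4% of all genes above 0. Without PBS replicate 4 there were 6 of 9 with a median of 0.04, beside 49.1%, and under median ratio scaling the median was 0.003. ACLY differed by 0.006 (95% interval -0.13 to 0.14) and FADS1 by 0.06 (-0.10 to 0.22), the 2 narrowest intervals in the group. ACSS2, which makes acetyl-CoA from acetate, differed by 0.13 and ELOVL5 by 0.09, and without PBS replicate 4 by 0.14 and 0.08. When PBS replicate 3 was left out, they differed by 0.09 and 0.15. ACACA, the carboxylase that makes malonyl-CoA, went from 0.07 to 0.01 without that library, and ELOVL6, which lengthens palmitate, from 0.16 to 0.04. SCD, the delta-9 desaturase that makes oleate, measured 37.2, 44.3, 76.6 and 37.2 FPKM in PBS and 44.1, 49.3, 46.4 and 53.2 in gluconate. PBS replicate 3 alone lay above the gluconate range. The log2 fold change of SCD was 0.05 (SE 0.21, limma adjusted p = 0.942), -0.06 without PBS replicate 4 and, without PBS replicate 3, 0.29 (limma unadjusted p = 0.019, adjusted p = 0.667).

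In the mevalonate group, the 7 enzymes from the cytosolic thiolase ACAT2 to FDPS had a median log2 fold change of 0.07, with 5 above 0 and 2 below, beside 66.4% of all genes above 0. Without PBS replicate 4 the median was 0.01 with 4 of 7 above 0, beside 49.1% of all genes. The median was -0.01 without PBS replicate 2, 0.13 without PBS replicate 3 and 0.002 under median ratio scaling. Over all genes the medians of these fits were 0.09, 0.09 and 0.005. HMGCS1, which makes HMG-CoA, measured 18.4, 11.9, 17.8 and 11.6 FPKM in PBS and 15.7, 17.7, 17.7 and 18.5 in gluconate. Its PBS values fell into a high and a low pair, with the gluconate values nearer to the high pair, and its log2 fold change of 0.25 (SE 0.16) was 0.14 without PBS replicate 4, 0.15 without PBS replicate 2 and 0.36 without PBS replicate 1 (limma unadjusted p = 0.048, adjusted p = 0.505). The kinases MVK and PMVK differed by -0.07 and 0.02, and by -0.11 and 0.03 without PBS replicate 4. The decarboxylase MVD differed by -0.11 with all libraries and -0.06 without that library, and the isomerase IDI1 by 0.08 in both fits. ACAT2 went from 0.08 to 0.01 and FDPS from 0.07 to -0.02 when PBS replicate 4 was left out. Without PBS replicate 3, IDI1 was at 0.13, ACAT2 and FDPS at 0.14, MVK at 0.002, PMVK at 0.0004 and MVD at -0.11. Exons of ACAT2 overlap those of TCP1 on the other strand, which had a mean of 131 FPKM.

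The 11 genes from squalene to cholesterol had the largest spread of the 4 role groups. Their median SD of log2 values within PBS was 0.35, beside 0.25 over all genes tested, and without PBS replicate 4 it was 0.25 beside 0.14. Within gluconate it was 0.14, beside 0.12 over all genes. Of the 11, 9 had a log2 fold change above 0 with a median of 0.12, beside 66.4% of all genes above 0. Without PBS replicate 4 there were 7 with a median of 0.02, beside 49.1%. The median was 0.24 without PBS replicate 3 and 0.06 under median ratio scaling, beside 0.09 and 0.005 over all genes.

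PBS replicate 3 was the highest of the 8 libraries for 18 of 32 members, beside 19.1% of all genes tested. By role these were 8 of 11 genes from squalene to cholesterol, 4 of 7 in the mevalonate group, 3 of 5 in sterol sensing and transport and 3 of 9 in fatty acid synthesis. PBS replicate 3 exceeded the next highest library at least 1.2 times in 4 of 32 members, beside 3.47% of all genes, and these were FDFT1, LSS, HSD17B7 and SCD. The genes of this paragraph were picked after their values were seen, except SCD and HSD17B7. FDFT1, squalene synthase, the first enzyme committed to sterols, measured 24.3, 19.6, 45.9 and 29.4 FPKM in PBS and 21.5, 20.5, 24.7 and 24.97 in gluconate. LSS, lanosterol synthase, which closes the rings, measured 13.5, 14.0, 22.7 and 11.2 in PBS and 13.4, 14.2, 14.5 and 14.1 in gluconate. In both, PBS replicate 3 stood above the other 7 libraries, by 1.56 times for FDFT1 and 1.57 times for LSS. MSMO1, the methylsterol oxidase, measured 41.6, 33.6, 53.1 and 31.0 in PBS and 36.5, 43.5, 47.4 and 42.0 in gluconate, again with PBS replicate 3 on top. The log2 fold change was -0.31 (SE 0.22) for FDFT1, -0.08 (SE 0.19) for LSS and 0.11 (SE 0.16) for MSMO1. Without PBS replicate 3 these became -0.08, 0.13 and 0.26, and without PBS replicate 4 they were -0.29, -0.21 and 0.005. FDFT1 was -0.48 without PBS replicate 2 (limma unadjusted p = 0.040, adjusted p = 0.603).

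**Figure D3:**
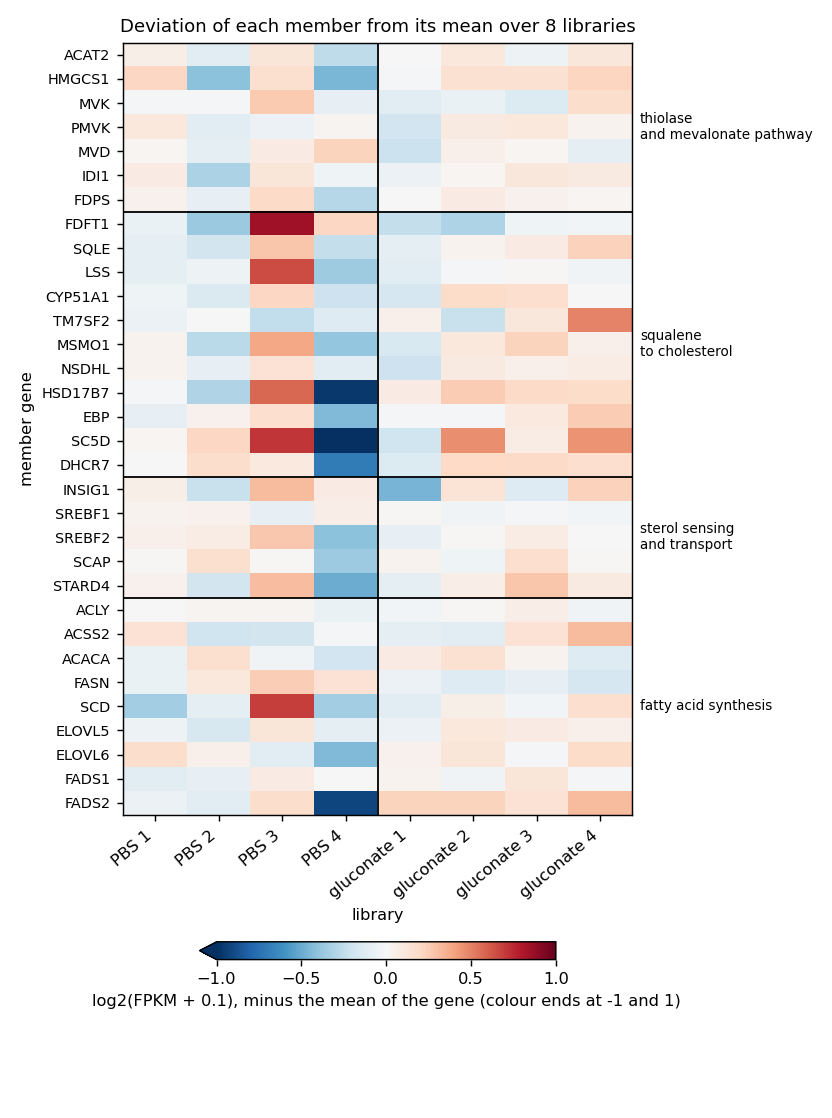
Deviation of each member from its own mean over the 8 libraries, on the log2(FPKM + 0.1) scale, with libraries as columns and members by role as rows (red: above, blue: below). PBS replicate 3 is red in most sterol rows, and PBS replicate 4 is darkest blue for SC5D, HSD17B7, FADS2 and DHCR7.

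Averaged over the 11 genes from squalene to cholesterol, PBS replicate 3 lay 0.35 above the mean of 8 libraries on the log2 scale, while it lay 0.02 above over all genes tested. The other libraries lay at -0.03, -0.09 and -0.46 in PBS replicates 1, 2 and 4 and at -0.11, 0.07, 0.11 and 0.17 in gluconate. The deviation of PBS replicate 3 was 0.13 for the mevalonate group, 0.17 for sterol sensing and transport and 0.11 for fatty acid synthesis. Not every gene of the branch shared it: TM7SF2, a C14 sterol reductase, was lowest in PBS replicate 3, at 5.46 FPKM, and highest in gluconate replicate 4, at 9.16. The ovarian carcinoma marker list had its highest sum in PBS replicate 3, at 2228 FPKM beside 1378 to 1787 in gluconate. The lowest sum in PBS was 1473, and that of PBS replicate 4 was 1856. Most of it was KRT8 and KRT18, at 1051 and 987 FPKM in PBS replicate 3. In the other libraries they reached 935 and 801 at most. PAX8 and EPCAM were also highest in PBS replicate 3, at 50.7 and 22.3. WT1 was lowest there, at 1.07, and MSLN, at 116, lay inside the range of the other libraries. Of 7 endothelial markers, EGFL7 alone had a mean of at least 1 FPKM. It was 7.77 in PBS replicate 3, beside 7.98 and 7.84 in PBS replicates 1 and 2. TIE1 was 2.86 in PBS replicate 3 and 0.202 to 0.896 in the other libraries, and KDR was highest there, at 0.0773. PECAM1 and VWF, at 0.385 and 0.0511, lay inside the range of the other libraries, and CDH5 and CLDN5 were 0 in PBS replicate 3. The part of these markers in the sterol values was not tested.

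PBS replicate 4 was the lowest library for 18 of 32 members, beside 58% of all genes tested. The summed fibroblast list, of which 5 of 9 genes had a mean of at least 1 FPKM, was 45.3 FPKM in PBS replicate 4, 130 to 185 in the other PBS libraries and 165 to 192 in gluconate. Most of the sum was COL1A1, while LUM, PDGFRB, FAP and COL3A1 reached 5.18, 3.41, 3.34 and 2.25 FPKM and COL1A1, LUM, PDGFRB, FAP and COL3A1 were each lowest in PBS replicate 4. COL1A2, DCN, PDGFRA and THY1 reached 0.125 at most, and the part of fibroblast RNA in the member values was not tested. The 3 members with the largest gap between it and the nearest library were SC5D, FADS2 and HSD17B7. SC5D, the sterol desaturase near the end of the branch, measured 2.05, 2.35, 3.37 and 0.536 FPKM in PBS and 1.75, 2.82, 2.14 and 2.80 in gluconate. The low value rested on 15 fragments, with a 95% Poisson interval of 0.300 to 0.884 FPKM that covers counting error only. HSD17B7, a ketosteroid reductase, measured 2.88, 2.34, 4.37 and 1.44 in PBS and 3.08, 3.48, 3.33 and 3.32 in gluconate. Its low value rested on 10 fragments, with an interval of 0.692 to 2.65. In HSD17B7 the gluconate values lay close together inside the wide PBS range, and in SC5D both groups were spread. The log2 fold change of SC5D was 0.40 (95% interval -0.63 to 1.43) and, without PBS replicate 4, -0.11, and that of HSD17B7 was 0.35 (-0.26 to 0.97) and 0.09. Without PBS replicate 3 it was 0.70 for SC5D and 0.60 for HSD17B7, the latter with a limma unadjusted p of 0.022 and an adjusted p of 0.667.

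**Figure D4:**
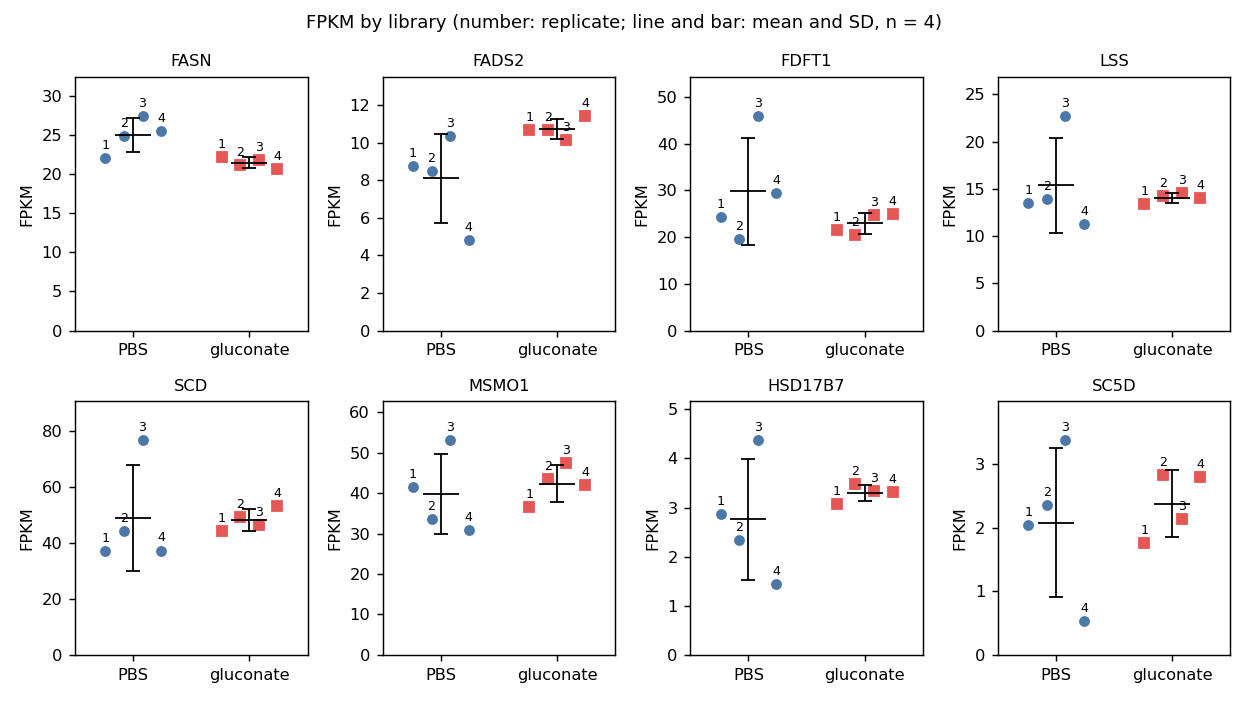
FPKM of 8 members in each library (circles: PBS, squares: gluconate, numbers: replicate), with the mean and SD of 4 libraries in black and axes that start at 0. All gluconate values of FASN lie below PBS replicates 2, 3 and 4, PBS replicate 3 is highest for FASN, FDFT1, LSS, SCD, MSMO1, HSD17B7 and SC5D, and PBS replicate 4 is lowest for FADS2, LSS, MSMO1, HSD17B7 and SC5D.

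The remaining enzymes of the branch had no unadjusted p under 0.05 with all libraries. CYP51A1, the lanosterol demethylase, differed by 0.10 and, without PBS replicate 4, by 0.04. NSDHL, a sterol dehydrogenase, differed by 0.005 and -0.03 in the same fits, EBP, the sterol isomerase, by 0.16 and 0.04, and TM7SF2 by 0.22 and 0.21. Without gluconate replicate 2, TM7SF2 was at 0.33 (limma unadjusted p = 0.042, adjusted p = 0.881), the only member with an unadjusted p under 0.05 in that fit. Exons of TM7SF2, which had a mean of 6.56 FPKM, overlap those of VPS51 on the same strand, at a mean of 24.2 FPKM. SQLE differed by 0.12, by 0.06 without PBS replicate 4 and by 0.24 without PBS replicate 3. In the fit without PBS replicate 3, CYP51A1 was at 0.18, EBP at 0.24, NSDHL at 0.05, TM7SF2 at 0.17 and DHCR7 at 0.28. DHCR7, the final reductase, measured 29.1, 33.0, 31.2 and 18.0 FPKM in PBS and 26.6, 33.6, 33.3 and 32.8 in gluconate. Its log2 fold change of 0.21 (SE 0.18) became 0.02 without PBS replicate 4.

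The regulators differed by 0.17 or less in size with all libraries, and their median of 0.006 was -0.02 without PBS replicate 4 and 0.10 without PBS replicate 3. Over all genes the medians of these fits were 0.07, -0.003 and 0.09. SREBF2 measured 23.2, 23.5, 27.0 and 16.8 FPKM in PBS and 21.1, 22.5, 23.6 and 22.4 in gluconate, with a log2 fold change of 0.006 (SE 0.13) and, without PBS replicate 4, -0.13 (95% interval -0.30 to 0.04). For SREBF2, PBS replicate 3 was the highest and PBS replicate 4 the lowest library. SREBF1 lay between 5.98 and 6.61 FPKM in every library and differed by -0.03, or -0.02 without PBS replicate 4. INSIG1, which holds SCAP in the endoplasmic reticulum, measured 14.7, 12.0, 17.6 and 14.9 in PBS and 10.2, 15.5, 12.9 and 16.5 in gluconate, a spread within gluconate of 1.62 times, and differed by -0.11 in both fits. SCAP differed by 0.09 with all libraries and by -0.02 without PBS replicate 4, and STARD4, a carrier of cholesterol between membranes, by 0.17 and 0.03. Without PBS replicate 3, STARD4 was at 0.30, SCAP at 0.11, SREBF2 at 0.10, INSIG1 at -0.03 and SREBF1 at -0.06.

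Other genes of the pathways, from lists written out in full, were compared in the same fits. Of 11 further genes of sterol synthesis and sensing, 9 had a log2 fold change above 0, beside 66.4% of all genes, and 6 without PBS replicate 4, beside 49.1%. None passed the adjusted threshold in limma, and 1 had an unadjusted p under 0.05, beside 4.62% of all genes. That gene was NPC2, which moves cholesterol out of lysosomes, at 61.9, 52.0, 49.7 and 39.5 FPKM in PBS and 68.2, 65.3, 67.0 and 75.7 in gluconate. All gluconate values of NPC2 lay above all PBS values, and the log2 fold change was 0.46 (SE 0.13, limma unadjusted p = 0.0048, adjusted p = 0.740) and, without PBS replicate 4, 0.34. MBTPS2, a protease that frees SREBP, differed by 0.31 and INSIG2 by 0.20, next in that list by p, and by 0.21 and 0.15 without PBS replicate 4. Of 9 oxysterol receptor genes and targets, 8 were tested, 6 lay above 0, beside 66.4% of all genes, and 3 of 7 without PBS replicate 4, beside 49.1%. None had an unadjusted p under 0.05 in limma in either fit, beside 4.62% and 6.21%. MYLIP was at -0.32, RXRB at 0.19 and ABCA1 at -0.90, and without PBS replicate 4 MYLIP was at -0.15 and RXRB at 0.06, while ABCA1 was under the minimum level for testing. ABCA1, the cholesterol exporter, measured 2.87 FPKM in PBS replicate 4 and 0.105 to 0.233 in the other 7 libraries. Of 28 further fatty acid genes, 24 were tested, 21 lay above 0 and 1 had an unadjusted p under 0.05, beside 66.4% and 4.62% of all genes. Without PBS replicate 4, 18 of 25 lay above 0 and none had an unadjusted p under 0.05, beside 49.1% and 6.21%. The 1 gene was HACD1, a dehydratase of fatty acid elongation, at 0.40 (limma adjusted p = 0.740), and at 0.38 without PBS replicate 4 (limma unadjusted p = 0.056). The desaturase SCD5 at 0.24 and the citrate carrier SLC25A1 at 0.18 followed, and were at 0.23 and 0.10 without that library.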

How the data were processed

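The authors deposited 1 table of FPKM values for 8 libraries. The submitters' processing notes name GRCh38, and the aligner, the counter, the annotation and the handling of mouse host reads are not given in the sources used here. All 8 columns were mapped by their letter and number. From the FPKM steps, whole fragments were recovered for 100% of values (tolerance 0.01), giving 3953206 fragments in PBS replicate 4 and 39325749 to 46551535 in the others.

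Members, lists and the naming rule were chosen with earlier results of these data known. Full values were given for members with an unadjusted p under 0.05 with or without PBS replicate 4, the 6 highest and 2 lowest by mean FPKM, and the 3 with the largest gap of PBS replicate 4. From other lists the 3 lowest p were named. The other genes given with full values were picked after their values were seen. No row of the table was a pseudogene named after a member.

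Groups were compared on log2(FPKM + 0.1) with limma 3.58.1 (eBayes with a trend) in R 4.3.3, over genes with a mean of at least 0.5 FPKM, and a fold change on this scale understates that of low genes. Adjusted p-values are Benjamini-Hochberg. The script was tested on simulated data. Exact permutation tests over 4 against 4 libraries were two-sided. Alternatives were pseudocounts of 1 and 0.01, no filter, a mean of at least 1, median ratio scaling, quantile normalization, an unmoderated test, voom on recovered fragments, a replicate block, and each library left out in turn. Leaving out PBS replicates 3 and 4 together, and voom without PBS replicate 4, were added after seeing the data. Promoter stretches came from RefSeq (GRCh38), and for 28 of 28 genes 30 bases after a start were found in a GENCODE transcript of the gene. Gene overlaps were read from the GENCODE annotation. Python 3.11.15, numpy 2.4.6, scipy 1.17.1, pandas 2.3.3 and matplotlib 3.10.9 were used.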

Additional observations from a re-analysis of the deposited data

Results flagged for a closer look

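Within the 4 libraries of a group, 3 of 70 sets of values had 1 library farther from the others than Dixon's limit at the 95% level allows, and chance alone flags about 1 in 20, or 3.5 of 70. NSDHL was 9.92 FPKM in gluconate replicate 1 and 11.9 to 12.2 in the other 3 gluconate libraries. DHCR7 was 26.6 FPKM in gluconate replicate 1 and 32.8 to 33.6 in the other 3. The fragments of PBS replicate 4, 3953206, stood below the 39895393 to 46551535 of the other 3 PBS libraries.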

How the results depend on the processing

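No member passed the adjusted threshold in any of the 20 settings run on the table, where the lowest adjusted p of a member ranged from 0.491 to 1.000. Replacing it by an unadjusted p under 0.05 gave 1 member, FASN. That count was 2 under median ratio scaling, quantile normalization, voom on recovered fragments and voom without PBS replicate 4, in each case FASN and FADS2, where 5.67%, 6.09%, 4.77% and 6.07% of all genes had one. It was 4 without PBS replicates 3 and 4, which were SQLE, HSD17B7, SCD and FADS2. Leaving out 1 library at a time gave 0 to 4. It gave 4 without PBS replicate 3 (SQLE, HSD17B7, SCD and FADS2). It gave 2 without PBS replicate 1 (FASN and HMGCS1), 2 without PBS replicate 2 (FASN and FDFT1) and 2 without PBS replicate 4 (FASN and FADS2). It gave 1 without gluconate replicate 2 (TM7SF2), and 0 without gluconate replicate 4. The share of all genes was 4.02% without PBS replicate 3, 9.74%, 7% and 6.21% without PBS replicates 1, 2 and 4, and 3.16% and 2.14% without gluconate replicates 2 and 4. The cause was not tested.

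Of the 14 members followed through all settings, 7 turned sign in at least 1, among them SC5D and FDFT1, which were 0.40 and -0.31 with all libraries. ACLY was -0.0600 under median ratio scaling, -0.0070 under quantile normalization, -0.0015 with voom, -0.0143 with voom without PBS replicate 4 and -0.0090 without PBS replicates 3 and 4. SCD was -0.0189 and FADS1 -0.0072 under median ratio scaling. With voom without PBS replicate 4, SCD was -0.0614, FDPS -0.0152 and SC5D -0.0995. Without PBS replicates 3 and 4, FDFT1 was 0.0662 and LSS 0.0312. Over single libraries left out, ACLY ranged from -0.0152 to 0.0179, SCD from -0.0608 to 0.2858, FDPS from -0.0153 to 0.1421, SC5D from -0.1134 to 0.7031, FDFT1 from -0.4846 to -0.0766 and LSS from -0.2097 to 0.1267. All 6 of these were below 0 without PBS replicate 4, where ACLY, SCD, FDPS and SC5D had turned sign. FASN ranged from -0.28 to -0.13 and FADS2 from 0.22 to 0.59 over all settings, and neither changed sign.

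The replicate block gave 0 members at an unadjusted p under 0.05, beside 3.76% of all genes, with limma unadjusted p = 0.052 for FASN and 0.067 for FADS2. The labels do not say whether the numbers pair the samples. The deviations of libraries with the same number correlated at -0.18, 0.08, 0.17 and -0.06, and 2 of 4 numbers correlated best with their own. With 4 numbers, of which 1 involves the shallow PBS replicate 4, these correlations cannot decide whether the samples are paired. The depth of PBS replicate 4 limits the low members, with 10 fragments in HSD17B7 and 15 in SC5D. With 4 libraries a group, 95% intervals of the members' log2 fold changes had a median width of 0.56.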
